A study of Sus scrofa with 12 samples.

Results

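The open chromatin regions that lie in gene deserts of the pig genome were examined in longissimus dorsi muscle, the long back muscle used for loin meat. A region was counted as a gene desert region when its midpoint lay more than 250 kb from the body of every protein-coding gene of the Sscrofa11.1 annotation on chromosomes 1 to 18. Of the 217213 deposited peak rows, 211677 were on these chromosomes, and 6281 of them lay in deserts. Peaks had been called more than once over the same sequence, so overlapping rows were merged and the longest was kept, which left 4567 desert regions of 136523 regions in all (3.35%). The other 131958 regions are called the remaining regions here. The midpoints of 2 merged regions fell on different sides of the limit depending on the row, and these are counted on both sides.

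The assay was ATAC-seq, in which a transposase cuts accessible DNA and adds sequencing adapters to it. The number of reads from a stretch was therefore taken as a measure of how accessible it was. Reads of both breeds were aligned to the same reference genome. Differences between the breeds in DNA sequence or copy number, and their part in the read counts, were not examined. The muscle came from 3 Duroc and 3 Luchuan male pigs aged 180 days that had been fed alike. Duroc is a fast-growing Western breed and Luchuan is a small Chinese breed known for fat deposition. Frozen whole muscle was used, so the values mix the nuclei of muscle fibres with those of other cells. Fewer cells of a type and less open chromatin per cell cannot be told apart in such data. The table gave 1 whole-number read count per region for each breed, with no value for a single animal. No difference between the breeds could therefore be set against the spread between animals, and no test was made.

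Gene deserts are long stretches without protein-coding genes. Many of them lie beside genes for developmental transcription factors or for neuronal adhesion proteins, and some are known to hold enhancers that act on a promoter far away. Other deserts hold little conserved sequence and are packed as closed chromatin in most tissues. An open region in a desert is therefore distal by definition, and the gene it acts on, if any, is not given by its position.

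The tissue label was checked against marker genes. All 7 skeletal muscle markers (ACTA1, CKM, MYLPF, TNNT3, TNNC2, DES and MYOD1) had open regions within 2 kb, and the strongest region of each held 957 to 1328 reads per kb in Duroc and 645 to 884 in Luchuan. The strongest regions at the markers of fat cells, endothelium, fibroblasts and immune cells reached at most 535 reads per kb in Duroc and 338 in Luchuan. CIDEC, CDH5 and LUM, 1 marker each of fat, endothelium and fibroblasts, had no region. Of the 3 liver genes used as a negative set, ALB and APOA2 had no region, whereas CYP7A1 had 5, the strongest with 189 reads per kb in Duroc and 148 in Luchuan. These values were above those of the fat cell gene ADIPOQ (134 and 81.3) and the fibroblast gene COL1A1 (182 and 127). Over chromosomes 1 to 18 the regions held 20272516 reads in Duroc and 13457682 in Luchuan. Luchuan counts were multiplied by 1.47 before the breeds were compared, which makes the median ratio over regions called in both breeds equal to 1.

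There were 526 deserts, which together made up 303.6 Mb or 13.4% of the autosomal sequence. They were not uniformly closed. In 435 of them at least 1 open region was present, and 91 had none, the longest of which spanned 1604 kb. Deserts held 15.0 regions per Mb against 67.3 per Mb in the remaining sequence, a 4.47-fold difference. The density was lower in the deserts on 18 of 18 chromosomes, with 7.82 to 23.4 regions per Mb against 54.1 to 87.6. Regions were unevenly shared among deserts. The 66 deserts with 20 or more regions held 2273 regions (49.8%) in 25.7% of the desert sequence, and at 6.37 to 141 regions per Mb they ran from far below to above the density of gene-rich sequence.

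The fall in density continued inside the deserts. From 87.4 regions per Mb within 10 kb outside a gene body, the density was 50.4 at 10 to 50 kb, 32.4 at 50 to 250 kb, 18.7 at 250 to 500 kb, 11.1 at 500 to 1000 kb and 8.85 beyond 1000 kb. The signal declined along the same axis. The median was 296 reads per kb of region in Duroc within 10 kb outside a gene, and 161, 127 and 123 in the 3 desert bins in order of distance. In Luchuan the corresponding medians were 186, 112, 99.3 and 102 unscaled reads per kb, so the last step was not a decline. The desert region farthest from any gene body lay 2235 kb away, and the median distance was 392 kb.

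**Figure D1:**
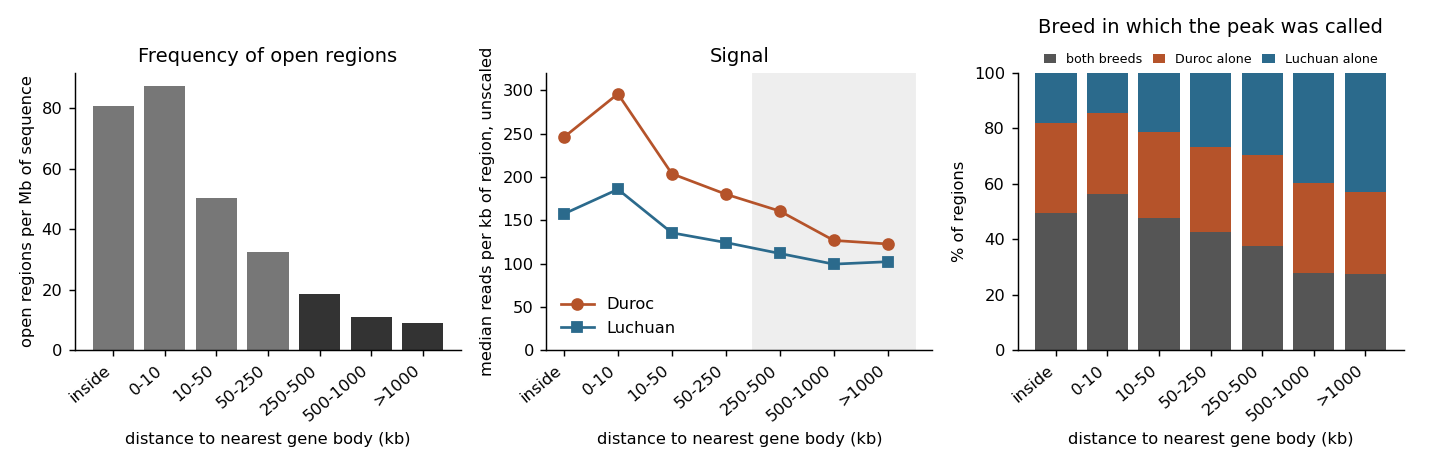
Open regions by the distance of their midpoint to the nearest protein-coding gene body, in kb, with the desert bins in black or on a grey ground. Left, regions per Mb of sequence fall from 87.4 within 10 kb to 8.85 beyond 1000 kb; middle, median unscaled reads per kb of region fall in both breeds up to 1000 kb; right, the share of regions called in Luchuan alone rises to 43.0% beyond 1000 kb while the share called in both breeds falls.

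Desert regions were shorter and weaker than the remaining regions. Their median length was 222 bases (quartiles 163 and 338) against 252 bases (175 and 442). Of the desert regions, 13.9% had exactly 150 bases, the shortest length in the table, against 9.94% of the remaining regions. Regions of 1000 bases or more were scarce, with 28 in deserts (0.613%) against 3.70% elsewhere. The median desert region held 32 reads in Duroc (quartiles 15 and 82) and 22 in Luchuan (14 and 48), whereas the remaining regions held 62 and 39. Per kb of region, the medians were 150 and 107 reads in deserts and 238 and 153 elsewhere. Both the median length and the median reads per kb were lower in the deserts on 18 of 18 chromosomes. All desert regions together took up 1.77% of the Duroc reads and 1.73% of the Luchuan reads, so the breeds gave nearly the same part of their signal to this sequence.

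The highest single values in deserts were like the highest elsewhere. The highest value in a desert was 1204 reads per kb in Duroc and 1282 in Luchuan, and the Luchuan value was the highest of all regions on chromosomes 1 to 18. There were 799 desert regions with 200 or more reads of both breeds together (17.5%, against 31.6% of the remaining regions). As a group these were weaker, with a median of 679 reads per kb against 878 in the remaining regions with that many reads.

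Each peak had been called in both breeds, in Duroc alone or in Luchuan alone. In the deserts these classes were of similar size, with 1574 regions called in both breeds (34.5%, 95% Wilson interval 33.1% to 35.9%), 1487 in Duroc alone (32.6%) and 1506 in Luchuan alone (33.0%). In the remaining regions 49.6% were called in both breeds, 31.6% in Duroc alone and 18.8% in Luchuan alone. The difference in the share called in both breeds moved with signal. Among regions with 200 or more reads, 94.1% of the desert regions and 95.04% of the remaining regions were called in both. Among those with at least 100 but under 200 reads the shares were 67.6% and 62.6%, and among those with 50 to 99 reads they were 31.7% and 28.3%. Among those with 20 to 49 reads they were 3.69% and 4.52%. At a given number of reads the 2 shares thus lay closer to each other than over all read numbers. With at least 50 but under 200 reads the desert share was the higher.

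The read counts of the breeds were then compared region by region. The scaled log2 ratio of Luchuan to Duroc, with 1 added to each count, had a median of 0.07 over the desert regions (quartiles -0.42 and 0.83) and of -0.01 over the remaining regions (-0.33 and 0.31). A 2-fold higher value in Luchuan was found for 942 desert regions (20.6%), where the rate over all regions of chromosomes 1 to 18 was 7.4%. A 2-fold higher value in Duroc was found for 369 desert regions (8.08%), where the rate over all regions was 5.16%. Without scaling, these counts were 405 (8.87%, against 2.51% of all regions) and 1123 (24.6%, against 20.3%), since the Duroc reads summed to more. For 790 of the 942 regions the 95% counting interval of the ratio lay wholly on the Luchuan side of equal (17.3% of desert regions, 6.43% of all regions), and for 348 of the 369 it lay wholly on the Duroc side (7.62% against 4.83%). These intervals are exact binomial (Clopper-Pearson) limits of the Luchuan share of a region's reads. They cover counting error only, and not differences between animals or PCR duplicates.

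The direction of the difference varied with the number of reads, taken as the unscaled sum of both breeds. Luchuan counts entered this sum without the scaling used for the ratio. Desert regions called in Luchuan alone held a median of 29 reads in this sum, and those called in Duroc alone held 50. Of the desert regions with under 20 reads, 237 were called in Luchuan alone. Most of the Luchuan excess was in weak regions, since only 131 of the 942 had 50 or more reads of both breeds together, and 901 were peaks called in Luchuan alone. Those 131 made up 5.33% of the 2457 desert regions with 50 or more reads, where the rate over all such regions was 2.44%, and 276 (11.2%) were at least 2-fold higher in Duroc, where it was 5.09%. Of the 269 desert regions with under 20 reads, 66.5% were at least 2-fold higher in Luchuan and 2.97% in Duroc, against 53.9% and 6.84% of all such regions. Of the 1841 desert regions with 20 to 49 reads, 34.3% were at least 2-fold higher in Luchuan and 4.62% in Duroc, against 18.6% and 5.26% of all regions with that many reads. The order turned with more reads. Of the 1022 desert regions with 50 to 99 reads, 7.93% were at least 2-fold higher in Luchuan and 11.4% in Duroc, where the rates over all such regions were 4.7% and 6.32%. Of the 636 with at least 100 but under 200 reads, 4.87% were higher in Luchuan and 13.99% in Duroc, against 2.45% and 6.92%. Of the 799 with 200 or more reads, 2.38% and 8.76% were higher, against 0.77% and 3.06%.

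Peak calling is part of these shares. A weak region enters the table only if a peak was called in at least 1 breed, so a weak region is likely to be high in the breed that gave the peak. The part of this selection in the Luchuan excess and in the change of direction with read number was not tested. Of the 1574 desert regions called in both breeds, at any read number, 48 (3.05%) were at least 2-fold higher in Duroc and 35 (2.22%) in Luchuan. Of the remaining regions called in both breeds, 1.31% and 0.979% were. Of the 1435 desert regions with 100 or more reads, 82.4% were called in both breeds, 216 in Duroc alone and 37 in Luchuan alone. Among the 1435, the 2-fold differences were 159 towards Duroc (11.1%) and 50 towards Luchuan (3.48%). The rates over all regions with that many reads were 4.52% and 1.4%. Without scaling, 447 of the 1435 were 2-fold higher in Duroc (31.1%, against 18.6% of all such regions) and 16 in Luchuan (1.11%, against 0.441%). The median log2 ratio of these 1435 regions was -0.17, and that of the remaining regions with 100 or more reads was -0.05. When the desert regions and all regions were each centred on their own median, 120 desert regions were 2-fold higher in Duroc (8.36%, against 3.98% of all regions) and 66 in Luchuan (4.60%, against 1.597%). At least 2-fold differences in both directions were therefore more frequent in the deserts than over all regions of the same strength.

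**Figure D2:**
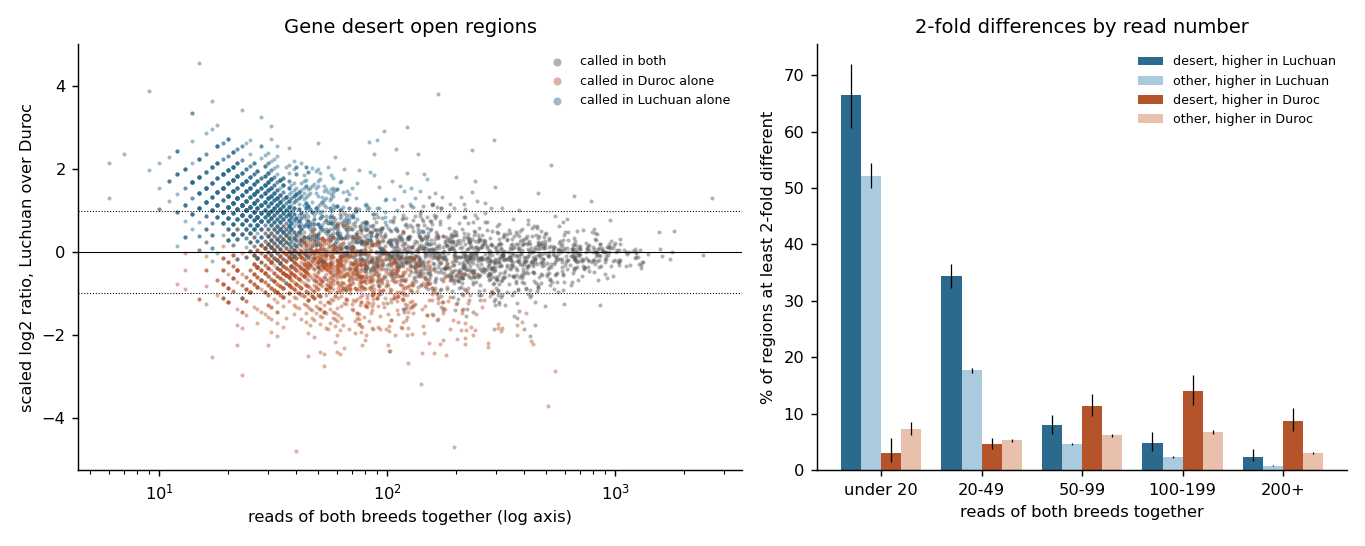
Left, the scaled log2 ratio of Luchuan to Duroc of each of the 4567 desert regions against its reads in both breeds together (log axis), coloured by the breed in which the peak was called, with dotted lines at 2-fold. Right, the share of desert and remaining regions at least 2-fold higher in each breed by number of reads, with 95% Wilson intervals as bars; the Luchuan share falls from 66.5% to 2.38% in the deserts, and the Duroc share exceeds it from 50 reads upwards.

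Over all regions, both 2-fold shares were higher farther from genes. The Luchuan share was 4.57% within 10 kb outside a gene body and 27.5% beyond 1000 kb, and the Duroc share was 4.46% and 10.1%. Among regions with 100 or more reads, 3.56% of those within 10 kb outside a gene body were at least 2-fold higher in Duroc. The share was 6.11% at 10 to 50 kb, 7.69% at 50 to 250 kb, 9.71% (104 of 1071) at 250 to 500 kb, 14.6% (44 of 301) at 500 to 1000 kb and 17.5% (11 of 63) beyond 1000 kb. The last bin is small, and its share rests on few regions. The share at least 2-fold higher in Luchuan was 0.898% within 10 kb, 1.78% at 10 to 50 kb and 2.63% at 50 to 250 kb. In the desert bins it was 3.73% (40 of 1071), 2.99% (9 of 301) and 1.59% (1 of 63) in order of distance. It thus did not rise throughout, and its values beyond 500 kb rest on few regions. The median log2 ratio of these regions was -0.05 within 10 kb, and -0.15, -0.24 and -0.28 in the desert bins in order of distance. The part of this shift in the Duroc shares was not tested. By chromosome, the Duroc share of the regions with 100 or more reads was above that of the remaining regions on 16 of 18 chromosomes, and the Luchuan share on 12 of 18. The exceptions for Duroc were chromosome 1, with 4.35% against 4.68%, and chromosome 12, which had 5 such regions and none that differed. The largest Duroc share was on chromosome 7, where 23.4% of 64 desert regions with 100 or more reads were at least 2-fold higher in Duroc.

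Desert regions came in clusters, although less densely than elsewhere. The median gap from a desert region to the nearest region was 5.38 kb against 1.69 kb. Another region lay within 10 kb of 61.1% of desert regions (95% Wilson interval 59.7% to 62.5%) and of 85.6% of the remaining regions. Isolated regions, with no other within 100 kb, made up 7.58% of the desert regions (346) and 0.375% elsewhere. When desert regions with gaps of at most 10 kb were chained, 2725 chains resulted. Of these, 1792 were single regions, 821 held 2 to 4 regions and 112 held 5 or more, with 744 regions (16.3% of the members) in the latter.

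Single and chained regions differed in signal and in breed class. Single regions held a median of 36 reads of both breeds together, 24.1% of them were called in both breeds, and 47.9% in Luchuan alone. Regions in chains of 5 or more held a median of 103 reads, 48.4% were called in both breeds and 16.8% in Luchuan alone. At least 2-fold higher values in Luchuan were found in 33.4% of single regions and in 6.99% of those in chains of 5 or more. The rate over all regions was 7.4%, so the share in these chains was close to it. The Duroc shares were 6.42% and 7.39%, where the rate over all regions was 5.16%. Single and chained regions were not compared at equal read numbers, and the remaining regions were not chained. Neighbours differed the same way more often than in opposite ways. Of 926 pairs of adjacent desert regions within 10 kb in which both had 50 or more reads, both were at least 2-fold higher in Duroc in 39 pairs and both in Luchuan in 11, whereas the 2 regions went in opposite directions in 2 pairs. In 114 pairs only 1 member was 2-fold higher in Duroc and in 51 only 1 was higher in Luchuan. Such pairs were not counted among the remaining regions, so this is not shown to be particular to deserts. Whether close neighbours are parts of a single open stretch was not tested.

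The desert with the most open regions lay beside MYC, which encodes a transcription factor that drives cell growth and proliferation. This desert, between the gene model LOC100151870 and MYC (chr4:10994227-12205140, 1211 kb), held 80 regions, or 66.1 per Mb, a density close to that outside the deserts. The regions held 12469 Duroc and 7765 Luchuan reads, and 44 of them were called in both breeds. The ratio of the summed reads was -0.13 on the scaled log2 scale (95% counting interval -0.17 to -0.08). At least 2-fold differences were found in 10 regions towards Duroc and in 3 towards Luchuan. The strongest region, chr4:11492559-11493587, lay 962 kb from MYC and held 813 Duroc and 454 Luchuan reads, a ratio of -0.28 (-0.45 to -0.12). The next, chr4:11472034-11472885, held 668 and 452 reads and did not differ within counting error, at -0.00 (-0.18 to 0.17). The desert on the other side of MYC, towards FAM84B, was shorter at 485 kb and held 19 regions with a summed ratio of 0.04 (-0.05 to 0.14).

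A muscle regulator bordered the most densely filled of the longer deserts. MEF2C encodes a transcription factor that works with MYOD1 and its relatives to switch on muscle genes. The desert between MEF2C and CETN3 (chr2:96546928-97324002, 777 kb) held 65 regions, or 83.6 per Mb, which was the highest density among deserts of 500 kb or more. Of these regions, 30 were called in both breeds, 25 in Duroc alone and 10 in Luchuan alone. Their reads summed to 6326 in Duroc and 3719 in Luchuan, a scaled log2 ratio of -0.21 (-0.27 to -0.15). The strongest region lay 491 kb from MEF2C (chr2:96787012-96788026), with 757 Duroc and 472 Luchuan reads and a ratio of -0.12 (-0.29 to 0.04). A group of 14 regions spanned 43.4 kb at chr2:96997499-97040909 and formed 1 of the 3 next-largest chains of all deserts. Its summed ratio was -0.10, and none of its 14 regions reached 2-fold in either direction.

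The ZNF503 desert, next to the potassium channel gene KCNMA1, was similarly filled. ZNF503 encodes a zinc finger repressor of development. The desert (chr14:78178755-79095381, 917 kb) held 69 regions, or 75.3 per Mb, with 10832 Duroc and 5952 Luchuan reads. The summed ratio was -0.31 (-0.35 to -0.26), and 8 regions were at least 2-fold higher in Duroc and 4 in Luchuan. Its strongest regions lay at the KCNMA1 end, where chr14:79052151-79053340 held 847 and 484 reads and chr14:79076466-79077526 held 837 and 459. Neither reached 2-fold, with ratios of -0.25 and -0.31.

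The other named deserts showed smaller differences in their summed reads or differences towards Luchuan. The desert between NMBR and CITED2 (chr1:23239189-24905651) held 75 regions, with a summed ratio of -0.04 (-0.10 to 0.01). CITED2 encodes a transcriptional co-regulator that binds CBP and p300. The desert from ACVR2A, which encodes a receptor for activins and myostatin, to LOC110257199 (chr15:4509057-7246597) held 78 regions in 2738 kb, with 4739 Duroc and 3521 Luchuan reads and a ratio of 0.13 (0.07 to 0.19). There, 12 regions were at least 2-fold higher in Luchuan and 1 in Duroc, but only 3 of the 12 had 50 or more reads. The desert between CCER1 and LOC106507543 (chr5:92136281-92684765) held 42 regions at 76.6 per Mb, with a ratio of -0.05 (-0.12 to 0.03).

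The longest deserts were sparse. The desert between CELF4 and PIK3C3 (chr6:121631053-125640597) spanned 4010 kb and held 28 regions, or 6.98 per Mb. The desert between PCDH7 and ARAP2 spanned 3399 kb with 28 regions, and that between PCDH20 and LOC106506534 spanned 3299 kb with 21. PCDH7 and PCDH20 encode protocadherins, and CELF4 encodes an RNA-binding protein of neurons. Few of these regions were called in both breeds (6 of 28, 6 of 28 and 3 of 21), and most were weak, with medians of 35.5, 46.5 and 36 reads of both breeds together.

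**Figure D3:**
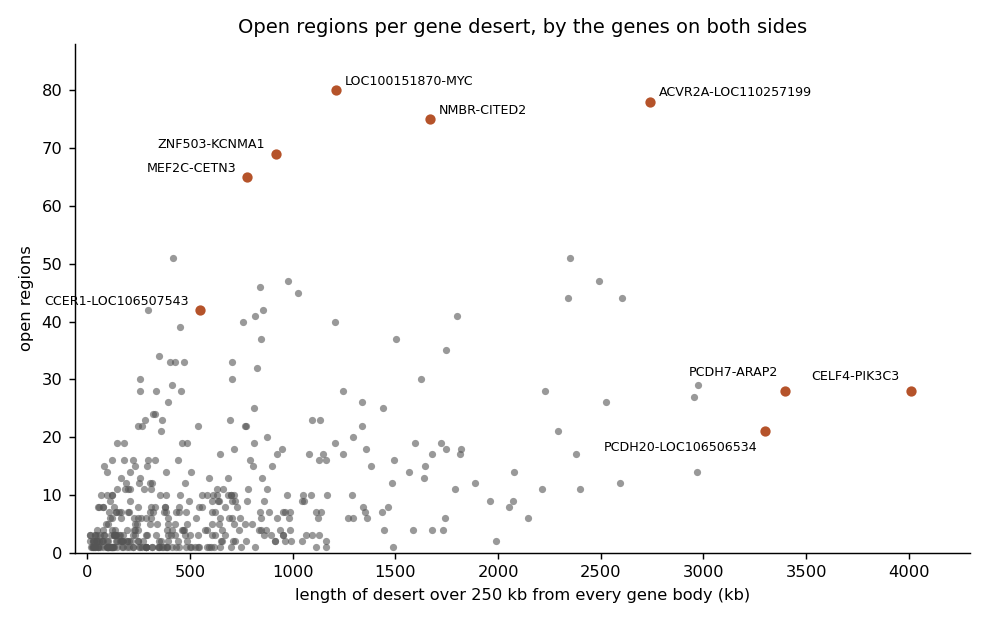
Number of open regions in each of the 435 deserts with at least 1 region, against the length of the desert (the sequence more than 250 kb from every gene body), in kb. The named deserts are in orange with the genes on both sides; the desert beside MYC holds 80 regions in 1211 kb and the longest, CELF4 to PIK3C3, holds 28 in 4010 kb.

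The largest chain of all, with 15 regions in 35.7 kb at chr14:1423541-1459192, lay between GADD45G and DIRAS2. GADD45G encodes a protein induced by growth arrest and DNA damage. The chain held 1645 Duroc and 1559 Luchuan reads, a summed ratio of 0.48, with 4 regions at least 2-fold higher in Luchuan and none in Duroc. The next chain of this desert, 10 regions at chr14:1471534-1506280, had a summed ratio of 0.41. The whole desert held 42 regions at 141 per Mb, the highest density among deserts with 20 or more regions, and had a ratio of 0.33 (0.27 to 0.39). Another chain of 14 regions lay between CSNK1G3 and ZNF608 (chr2:127563404-127611535), with a summed ratio of 0.04. A further chain of 14 regions, at chr16:46923224-46980453 beyond PIK3R1, had 3231 Duroc and 2078 Luchuan reads and a ratio of -0.08, and 10 of its regions were called in both breeds.

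**Figure D4:**
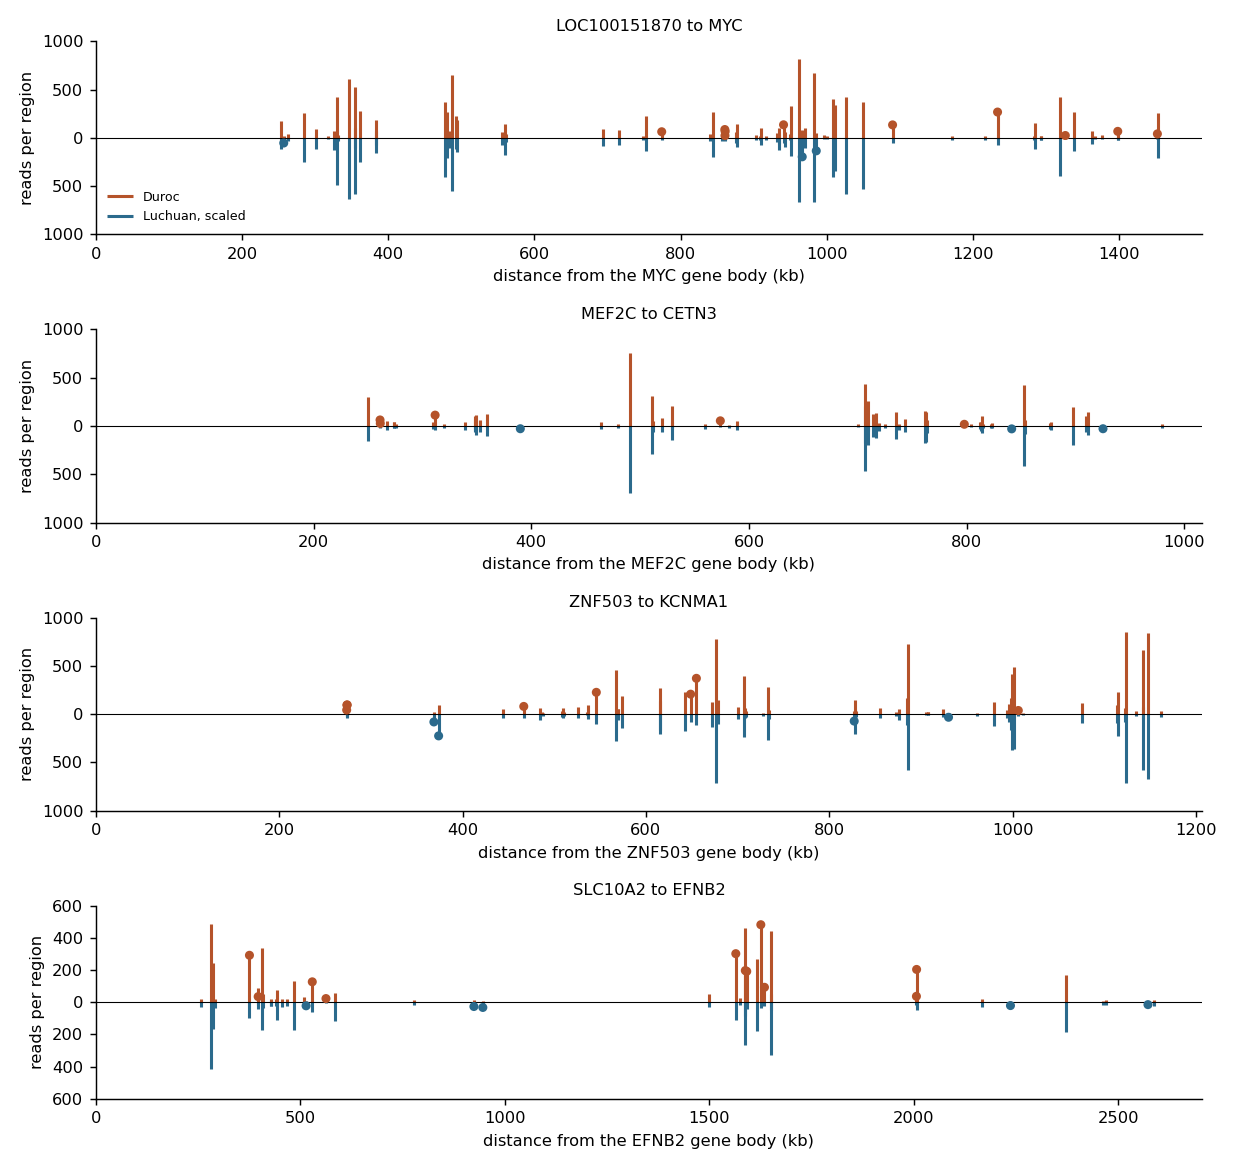
Open regions of 4 deserts by distance from a bordering gene, in kb. Duroc reads are drawn upwards and scaled Luchuan reads downwards, and dots mark regions at least 2-fold higher in Duroc (orange) or Luchuan (blue); most strong regions of the MYC, MEF2C and ZNF503 deserts mirror each other, whereas in the EFNB2 desert several of the strongest are higher in Duroc.

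Summed reads differed by desert. Among the 66 deserts with 20 or more regions the summed scaled log2 ratio ran from -0.75 to 0.57 with a median of -0.10, and it was below 0 in 44 deserts and above 0 in 22. Without scaling each of these ratios would be lower by 0.56, and of the 66 deserts only that between CD180 and PIK3R1 would then lie above 0. The deserts at both ends of this order were chosen after their values were seen and are given as a description. The 4 lowest lay between SUCLG1 and CTNNA2 (-0.75, -0.87 to -0.63), SLC10A2 and EFNB2 (-0.69, -0.76 to -0.61), RND3 and MMADHC (-0.53, -0.64 to -0.42), and EDIL3 and COX7C (-0.52, -0.67 to -0.39). The 4 highest lay between CD180 and PIK3R1 (0.57, 0.49 to 0.65), EPHA5 and CENPC (0.56, 0.42 to 0.69), CELF2 and LOC110255605 (0.55, 0.43 to 0.67), and CELF4 and PIK3C3 (0.54, 0.41 to 0.68).

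**Figure D5:**
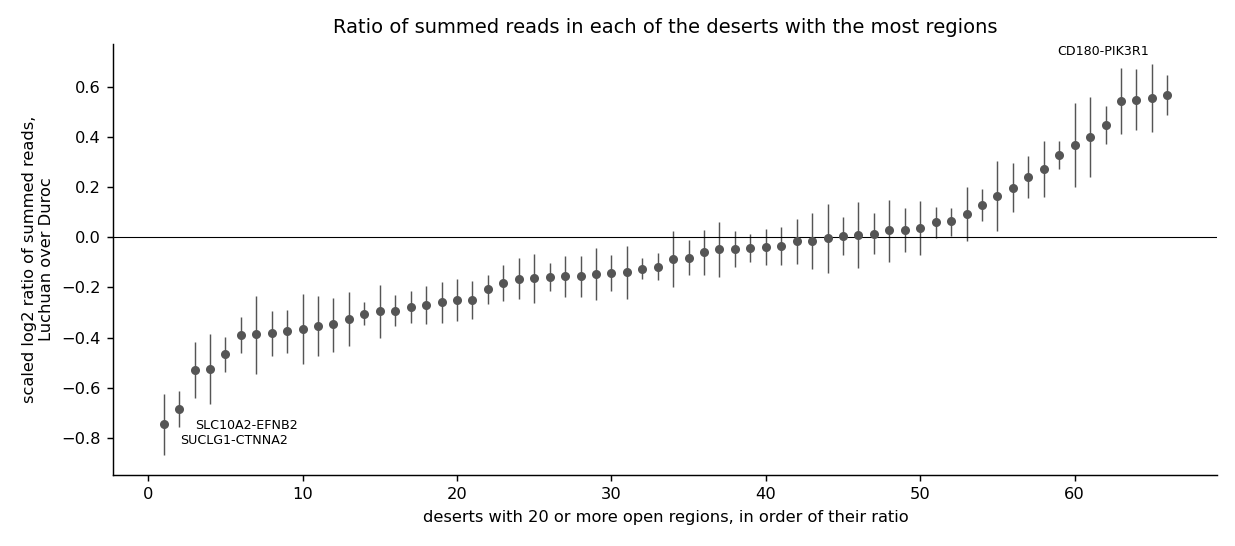
Scaled log2 ratio of the summed Luchuan reads to the summed Duroc reads in each of the 66 deserts with 20 or more open regions, ordered by the ratio. Bars are 95% counting intervals of the summed reads, which leave out differences between animals; 44 deserts lie below 0 and 22 above.

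In the desert between SLC10A2 and EFNB2 (chr11:71598780-73938336) several strong regions were higher in Duroc, and some of them sat together. EFNB2 encodes ephrin-B2, a membrane ligand that guides vessels and axons. The desert held 44 regions with 5211 Duroc and 2201 Luchuan reads. Of these, 11 were at least 2-fold higher in Duroc, 8 of which had 50 or more reads, and 5 were higher in Luchuan, none of which had 50 reads. The region with the widest gap, chr11:72562337-72563074, held 482 Duroc and 24 Luchuan reads (-3.71, -4.43 to -3.18). Of the 8 with 50 or more reads, 5 lay between chr11:72553638 and chr11:72624224. In this stretch, chr11:72596945-72597291 held 192 and 27 reads (-2.23), chr11:72600470-72600786 held 197 and 59 (-1.16) and chr11:72623548-72624224 held 302 and 76 (-1.42). The other 3 were scattered, at chr11:72181585-72182062 with 204 and 34 reads (-1.99), chr11:73659097-73659584 with 127 and 40 (-1.08) and chr11:73812602-73813276 with 292 and 67 (-1.55). The region nearest to EFNB2 among the strong ones, chr11:73906418-73907196, held 485 and 281 reads and lay on the Duroc side by a small amount, at -0.23 (-0.45 to -0.01).

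In the desert between CD180 and PIK3R1 (chr16:45838033-46184756) the opposite was seen, and it was spread over nearly all regions. PIK3R1 encodes the regulatory subunit of PI3-kinase, which acts in insulin signalling. Of the 34 regions of CD180-PIK3R1, 32 had a scaled ratio above 0, 13 were at least 2-fold higher in Luchuan and none in Duroc. Only 5 of the 13 had 50 or more reads. In 21 regions the Luchuan count exceeded the Duroc count even before scaling. The region chr16:46145117-46145961 held 243 Duroc and 420 Luchuan reads (1.34, 1.12 to 1.58). The strongest region, chr16:46022098-46023042, held 630 and 372 reads and went the other way by a small amount, at -0.20 (-0.39 to -0.01). On the far side of PIK3R1 the desert towards LOC110257255 held 28 regions with a ratio of -0.14 (-0.21 to -0.07), so the 2 deserts of this gene lay on different sides of 0.

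The 5 desert regions with the most reads were called in both breeds. The strongest, chr4:53952933-53954224, held 992 Duroc and 1656 Luchuan reads and was higher in Luchuan at 1.30 on the scaled log2 scale (1.18 to 1.41). It is 1292 bases long and lies 848 kb from SNX16, with RALYL 1394 kb away on the other side. It was the only one of the 5 that passed 2-fold. Another, chr10:66060632-66061916, lies inside the long non-coding RNA gene LOC110255727, 427 kb from KLF6, and its 920 and 889 reads gave 0.51 (0.37 to 0.64). A further pair, chr1:132292081-132293088 with RASGRP1 410 kb away and chr1:4246895-4248058 485 kb from QKI, held 1061 and 720 reads and 1081 and 656 reads. Their ratios were -0.00 (-0.14 to 0.14) and -0.16 (-0.30 to -0.02). QKI encodes an RNA-binding protein that regulates splicing, in muscle as in glia.

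The 5 longest desert regions included 3 of those 5, and the others did not pass 2-fold. In the MYC desert, chr4:11427540-11428883 is 1344 bases long, lies in the long non-coding RNA gene LOC110260221, and held 423 Duroc and 395 Luchuan reads (0.46, 0.26 to 0.66). Next to RGMA, chr7:85620573-85621817 is 1245 bases long and held 975 and 624 reads (-0.09, -0.23 to 0.06).

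The largest differences towards Duroc among desert regions with 50 or more reads were found in peaks called in Duroc alone. The region chr5:95184676-95185061, 279 kb from MGAT4C, held 192 Duroc reads and 4 Luchuan reads (-4.71, -6.92 to -3.65). It was followed by the region of 482 and 24 reads in the EFNB2 desert, and by chr6:156855903-156856246 with 132 and 9 reads (-3.18, -4.48 to -2.35), which lies in the long non-coding RNA gene LOC102158888 between PLPP3 and USP24. The remaining 2 were neighbours 0.962 kb apart in the desert between OLFM4 and LOC110255823. There, chr11:27950182-27951044 held 499 and 45 reads (-2.88, -3.39 to -2.47) and chr11:27952007-27952229 held 49 and 4 (-2.76, -4.99 to -1.61).

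The largest differences towards Luchuan were found in peaks called in Luchuan alone, and these regions held fewer reads. At the end of chromosome 17 beyond PCMTD2, chr17:63385809-63386064 held 15 Duroc and 153 Luchuan reads (3.82, 3.14 to 4.78), and 0.118 kb away chr17:63385237-63385690 held 53 and 240 (2.72, 2.30 to 3.19). Both lie near the end of the chromosome, where there is no gene on the other side. Between SLITRK1 and SLITRK6, genes for neuronal membrane proteins, chr11:55364585-55365032 held 18 and 104 reads (3.02, 2.36 to 3.90). In the desert of SOX9, which encodes a transcription factor of cartilage and is known for very distant enhancers, chr12:9178791-9179250 lay 532 kb from the gene and held 15 and 82 reads (2.93, 2.20 to 3.91). The fifth, chr4:5872360-5872817, held 16 and 74 reads (2.70, 1.97 to 3.65) in the long non-coding RNA gene LOC110260213.

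Only 3 desert regions had no read in 1 breed. The region chr15:129737146-129737413 held 40 Duroc reads and 0 Luchuan reads. The regions chr16:14662791-14662948 and chr17:63452504-63452656 held 0 Duroc reads and 15 and 9 Luchuan reads. A count of 0 allows up to 3 reads, so no fold is given for them.

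The SOX9 desert as a whole, towards KCNJ2, held 19 regions with a summed ratio of 0.42 (0.28 to 0.55), of which 8 were at least 2-fold higher in Luchuan, 3 of them with 50 or more reads, and none in Duroc. Its strongest region, chr12:9470967-9471670, held 265 Duroc and 129 Luchuan reads and had a ratio on the Duroc side, at -0.47 (-0.80 to -0.17).

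The 2 members just inside the 250 kb limit, chr9:27528854-27529570 and chr13:181621392-181621690, held 225 and 80 reads and 60 and 14 reads in Duroc and Luchuan. The first of them overlaps a row whose midpoint lies outside the limit. The 2 regions just outside it that overlap no member, chr2:117234894-117235683 and chr14:81159007-81159348, held 328 and 279 reads and 56 and 35 reads. Of the 4567 members, 1261 (27.6%) lay inside the body of an annotated long non-coding RNA gene and 105 (2.30%) within 2 kb of an end of such a gene. Members in long non-coding RNA bodies held a median of 61 reads of both breeds together, and those away from bodies and ends held 52. At least 2-fold higher values in Luchuan were found in 17.0% of the former and 22.1% of the latter, and in Duroc in 7.53% and 8.33%.

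Deserts with open regions were bordered by 788 of 18705 protein-coding genes (4.21%), and deserts with 20 or more regions by 128 (0.684%). Of 64 listed developmental transcription factors and signals, 32 (50%) bordered a desert with open regions, and MEIS1, NR2F1 and MYC were among those that bordered one with 20 or more regions. Of 50 cell adhesion and synaptic genes, 43 (86%) did so, and 10 of them bordered a desert with 20 or more regions. These lists hold genes known to lie beside deserts, so their counts are not independent evidence. Of 46 skeletal muscle genes, 4 (8.70%) bordered such a desert, among them MEF2C, PPARGC1A and SGCD, with 65, 24 and 2 regions.

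The 406 regions beside developmental genes held a median of 57.5 reads of both breeds together, with 89 (21.9%) at least 2-fold higher in Luchuan and 32 (7.88%) in Duroc, close to the 20.6% and 8.08% of all desert regions. The 611 beside adhesion and synaptic genes held a median of 40 reads, with 181 (29.6%) and 60 (9.82%). The 95 beside muscle genes held a median of 77 reads, with 6 (6.32%) in each direction. Of these 95, 65 lay in the MEF2C desert and 24 in the PPARGC1A desert, so the values mainly describe these deserts. The median log2 ratios of the developmental, adhesion and muscle sets were 0.12, 0.24 and -0.12, where that of all desert regions was 0.07. The sets were not matched for read number. In the desert of PPARGC1A, which encodes a coactivator of mitochondrial and oxidative fibre genes, 15 of 24 regions were called in both breeds and the summed ratio was 0.02 (-0.07 to 0.10). In the desert of NR2F1, which encodes an orphan nuclear receptor, 9 of 37 regions were at least 2-fold higher in Duroc and 8 in Luchuan. Of these, 8 of the Duroc regions and 1 of the Luchuan regions had 50 or more reads. The summed ratio was -0.38 (-0.47 to -0.30). In the desert between SPRED2 and MEIS1, which encodes a homeodomain partner of HOX proteins, 33 regions had a ratio of 0.24 (0.16 to 0.32).

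Some further deserts had most of their regions on the same side of 0, and these too were picked after their values were seen. Between the protocadherin gene PCDH9 and KLHL1 all 14 regions had a ratio above 0, 11 were at least 2-fold higher in Luchuan and none was called in both breeds, at a median of 30.5 reads of both breeds together. Between LOC102165146 and FLRT2, which encodes an adhesion protein, 17 of 19 regions had a ratio below 0 and 8 were at least 2-fold higher in Duroc, 7 of them with 50 or more reads, while 2 were higher in Luchuan. The summed ratio there was -1.17 (-1.32 to -1.02). In the desert between SLC4A3 and EPHA4, which encodes an ephrin receptor, 32 of 40 regions had a ratio below 0 and 13 were at least 2-fold higher in Duroc against 4 in Luchuan, with a summed ratio of -0.38 (-0.46 to -0.29).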

How the data were processed

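Peak counts from ATAC-seq were used, and the RNA-seq files of the series were not used here. Per the labels and methods, the authors filtered reads with Trimmomatic 0.36, aligned them to Sus scrofa 11.1 with Bowtie2 and called peaks with MACS2. Duplicate removal, the transposase shift and the pooling of the 3 animals per breed are not given in the sources used here. The deposited table holds raw read counts per peak and breed, the class of each peak, and the authors' own rescaled log2 fold change, average log2 signal and p-value, which were not used. Rows on other sequences than chromosomes 1 to 18 (2.55%) were left out.

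Overlapping rows were merged with the longest kept, and distances were measured to 18722 protein-coding gene bodies of RefSeq (Sscrofa11.1), with the last gene or peak as the chromosome end. Genes that this annotation leaves out would shorten deserts. Luchuan counts were scaled by 1.47, and log2((Luchuan + 1) x 1.47 / (Duroc + 1)) was computed. With 1 count per breed no test was made, and 95% Clopper-Pearson and Wilson intervals cover counting error only. Regions were named by the 5 most reads, the 5 longest, the 5 largest ratios each way among those with 50 or more reads, and the 2 nearest to the limit on each side; deserts by most regions, density and length; and chains by size. Regions with 0 reads, deserts with extreme ratios and further single deserts were added after their values were seen. The members and lists were chosen with earlier results of these data known. No genome sequence was used, so sequence motifs were not analysed here. Some named regions and genes that these rules pick are not reported here. Python 3.11.15, pandas 2.3.3 and SciPy 1.17.1 were used, and the code was tested on simulated data.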

Additional observations from a re-analysis of the deposited data

How the results depend on the processing

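With 1 count per region and breed, no animal could be left out. No paired analysis was possible because the count columns carry no replicate number. Of 74 alternative values, 33 lay within 1.5 times the reported count or density or within the 95% interval of the reported share or median, 40 lay outside and 1 reversed. The 33 include densities of 20.7 regions per Mb at 100 kb and 10.6 at 500 kb. With a limit of 100 kb there were 11083 desert regions, 38.3% called in both breeds, a median length of 231 bases, 272 reads per kb, 1909 regions 2-fold higher in Luchuan and 791 in Duroc. With 500 kb the values were 1442, 27.8%, 204, 217, 369 and 131, with a median log2 ratio of 0.21. With the bodies of every annotated gene they were 917, 28.0%, 204, 218, 231 and 77, at 9.30 regions per Mb and 0.18. The 2-fold shares towards Luchuan and Duroc were 17.2% and 7.14% at 100 kb, and 25.6% and 9.08% at 500 kb. With every annotated gene they were 25.2% and 8.40%, where the rates over all regions were 7.4% and 5.16%. With at least 20 reads the share in both breeds was 36.6%, the length 232.5, the reads per kb 260.0 and the log2 ratio 0.023. Scaled by total reads, the ratio was 0.11. Without scaling it reversed to -0.49, with 405 regions (8.87%) 2-fold higher in Luchuan and 1123 (24.6%) in Duroc. The unscaled rates over all regions were 2.51% and 20.3%. At 4-fold, 125 (2.74%) and 43 (0.942%) regions remained, against 0.791% and 0.552% of all regions. With a gap of 5 or 25 kb, 48.7% or 75.9% had a neighbour.

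For regions with 100 or more reads the alternatives were chosen after seeing the data. Without scaling, 16 (1.11%) were 2-fold higher in Luchuan and 447 (31.1%) in Duroc, against 0.441% and 18.6% of all such regions. At 100 kb the counts were 117 (2.92%) and 362 (9.02%) of 4013. At 500 kb they were 10 (2.75%) and 55 (15.1%) of 364. With every annotated gene they were 9 (3.95%) and 31 (13.6%) of 228. For these limits the rates over all such regions were 1.40% and 4.52%.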
